A study of Mus musculus with 19 samples.

Results

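The mammary gland of wild-type (WT) mice was compared between day 6 of pregnancy (p6), when ducts branch and the first alveolar buds form, and day 18 (p18), shortly before birth. The comparison rests on 6 of the 19 total RNA libraries of a series on enhancers of the casein genes, and its members are the libraries whose titles name WT tissue at p18 (n = 3) or at p6 (n = 3). The mice were C57BL/6 females (C57BL/6N in the study's methods), 8 to 12 weeks old, without a deletion or a treatment, and each library was made from whole mammary tissue. A library therefore holds epithelium together with fat, stroma, vessels, nerves and immune cells. In such bulk tissue, fewer cells of a type and less RNA per cell cannot be told apart. A further 8 libraries of the series, 4 at p6 and 4 at p18, came from mice that lack a cluster of enhancers next to the Odam gene in the casein locus (genotype label Enhancer-delS1-4, called ΔSE here), and they gave a second reading of the same stages. The libraries of 2 other deletion lines were not used here.

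Pregnancy turns a sparse tree of ducts in a fat pad into a gland packed with alveoli. Progesterone, acting on a subset of luminal cells that carry its receptor, makes these cells release ligands such as RANKL (Tnfsf11), Wnt4 and amphiregulin, which drive their neighbours to divide. Prolactin then acts through its receptor and the kinase JAK2 on the transcription factor STAT5, which together with ELF5, NFIB and the glucocorticoid receptor turns on milk genes. Secretory cells make caseins and whey proteins on the rough endoplasmic reticulum (ER), lactose in the Golgi, and triglyceride that leaves the cell as membrane-wrapped droplets.

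The deposited values are read counts per gene. Between 14779712 and 20525175 reads per library fell in genes, but the ribosomal RNA precursor Rn45s took 29.2 to 40.4% and Lars2 took 9.04 to 18.2% of them, and both were left out of library sizes and tests. This left 6120088 to 10063260 reads per library at p6 and 9980142 to 12492954 at p18. Levels are given as normalized CPM, these reads scaled to library size with TMM factors (trimmed mean of M values), in the order of replicates 1, 2 and 3. They were compared between samples of 1 gene, not between genes. Of the p6 libraries, replicate 2 differed most from the other p6 libraries in milk genes. The median of the 5 caseins in it differed from the mean of replicates 1 and 3 by -4.94 on the log2 scale, and that of 8 brown adipocyte markers by 2.47. Skeletal muscle markers summed to 3444, 5431 and 5795 at p6 and 22.6, 2375 and 3642 at p18, so that replicate 1 at p18 held almost none of the muscle RNA seen in the other libraries.

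Between p6 and p18 the tissue changed broadly. Of 16918 genes tested with edgeR's quasi-likelihood test, 2109 were higher at p18 (12.5% of those tested) and 1425 were lower (8.42%) at an adjusted p under 0.05 by the Benjamini-Hochberg method, whatever the size of the change. The changes of at least 4-fold (a log2 fold change of 2) were nearly balanced, with 200 genes higher and 188 lower. Over all tested genes the median log2 fold change was -0.07. The groups of 3 libraries overlapped in 3 of the genes called higher and in 5 of those called lower. Over all 16918 tested genes, called or not, every p18 library lay above every p6 library in 3783 and below in 3327. A lack of overlap therefore adds little to a call. Milk genes took a large part of the reads at p18. Scaling by library totals in place of TMM moved the median of all genes to -0.57 and gave 732 genes higher and 5580 lower, or 11.6% of calls higher in place of 59.7%. Values below are relative to the bulk of the genes, and where the balance or the median of a list flipped under totals, its values under both scalings are given. Counts within a list stand beside these shares of 12.5% and 8.42%, and list medians beside -0.07. List counts of another fit stand beside the counts of that fit over all genes, such as those given here for totals. Without replicate 1, 2 or 3 at p18 these were 1500, 907 and 1162 higher and 861, 448 and 566 lower. P-values measure the spread between 3 libraries per stage, which are described as independent biological replicates.

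**Figure D1:**
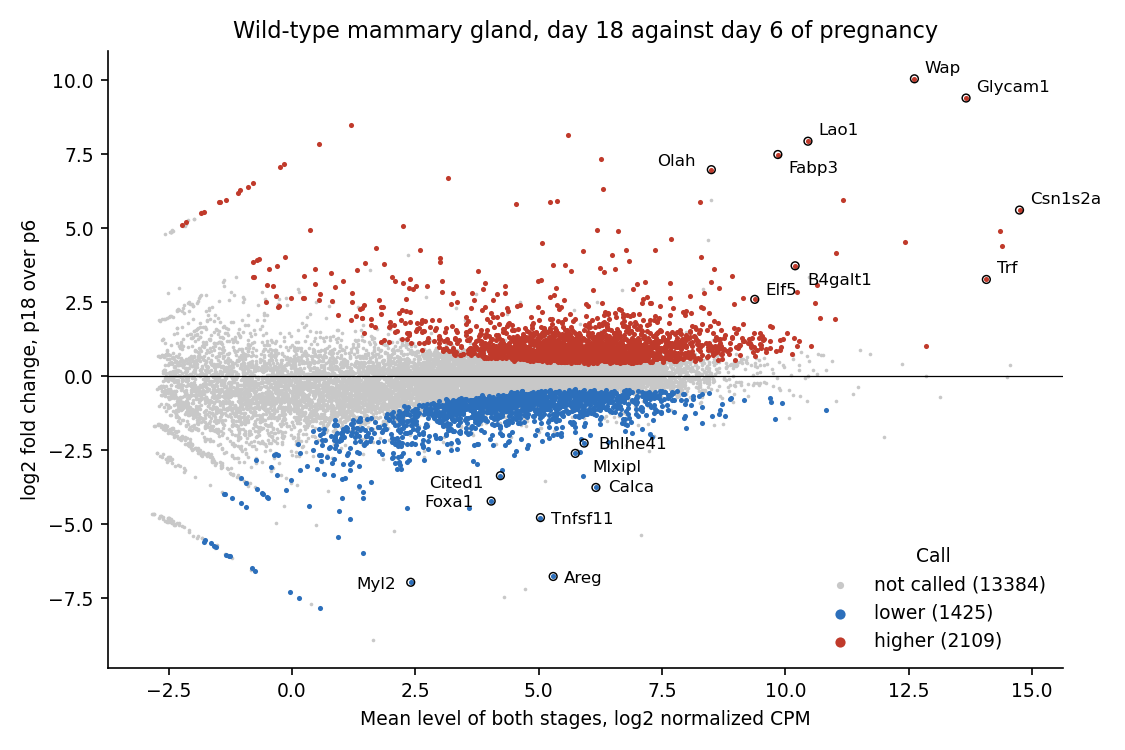
Log2 fold change of each tested gene (p18 over p6, vertical axis) against its mean level (log2 normalized CPM, horizontal axis) in 6 WT libraries, with genes called higher (2109) and lower (1425) in colour. Among the labelled genes Wap (10.05) and Glycam1 (9.40) stand highest and Myl2 and Areg (-6.76) lowest.

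Milk protein genes outside the casein locus held the largest rises. Wap encodes whey acidic protein, a major whey protein of rodent milk. Its level was 14.7, 15.7 and 5.28 at p6 and 18970, 11171 and 7432 at p18. Every p18 library lay far above every p6 library, and replicate 2 at p6 was not low for this gene (log2 fold change 10.05, standard error 0.69, adjusted p = 0.000125). Glycam1 encodes a mucin-like protein that is secreted into milk, and its level was 64.3, 22.3 and 28.6 at p6 and 31404, 26601 and 19557 at p18. The groups were again widely apart (log2 fold change 9.40, standard error 0.65, adjusted p = 0.000125).

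Lalba, the subunit that directs the enzyme of lactose synthesis to glucose, did not pass the test. Its level was 32.5, 0.712 and 2.47 at p6 and 1405, 473 and 236 at p18. The p18 libraries were all above the p6 libraries, yet replicate 1 at p6 stood far above the other p6 libraries (log2 fold change 5.94, standard error 1.76, adjusted p = 0.0809). Leaving out replicate 2 at p6 did not bring Lalba past the threshold (log2 fold change 5.37, adjusted p = 0.151).

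The promoters of Wap, Lalba, Glycam1 and Csn2 are shown because these milk genes lie at the centre of the change and are known targets of STAT5 and NFI factors. Each is the 250 bases before the RefSeq start of transcription on GRCm38.p6, 5′ to 3′ on the minus strand of the genome, at chr11:6638650-6638899 for Wap, chr15:98482684-98482933 for Lalba, chr15:103565082-103565331 for Glycam1 and chr5:87699426-87699675 for Csn2. Capitals mark every match to TTCNNNGAA, the GAS core read by STAT factors, and to TGGCA or its reverse complement TGCCA, the short NFI site. TTCNNNGAA reads the same on the other strand and shares no bases with the NFI matches here.
Wap: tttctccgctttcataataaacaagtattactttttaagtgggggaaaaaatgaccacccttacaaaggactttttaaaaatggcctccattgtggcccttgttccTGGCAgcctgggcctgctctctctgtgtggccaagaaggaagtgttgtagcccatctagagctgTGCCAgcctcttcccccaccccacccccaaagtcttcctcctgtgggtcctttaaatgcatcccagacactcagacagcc
Lalba: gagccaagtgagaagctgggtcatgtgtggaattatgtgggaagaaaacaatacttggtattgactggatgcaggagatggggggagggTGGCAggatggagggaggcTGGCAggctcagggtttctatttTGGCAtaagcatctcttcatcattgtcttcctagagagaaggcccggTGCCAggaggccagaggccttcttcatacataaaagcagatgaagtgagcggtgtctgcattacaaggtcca
Glycam1: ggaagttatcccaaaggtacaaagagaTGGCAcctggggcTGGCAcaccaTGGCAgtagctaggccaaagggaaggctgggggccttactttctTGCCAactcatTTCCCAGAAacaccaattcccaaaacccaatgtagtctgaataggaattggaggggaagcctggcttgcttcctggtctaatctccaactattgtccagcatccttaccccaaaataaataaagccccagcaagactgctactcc
Csn2: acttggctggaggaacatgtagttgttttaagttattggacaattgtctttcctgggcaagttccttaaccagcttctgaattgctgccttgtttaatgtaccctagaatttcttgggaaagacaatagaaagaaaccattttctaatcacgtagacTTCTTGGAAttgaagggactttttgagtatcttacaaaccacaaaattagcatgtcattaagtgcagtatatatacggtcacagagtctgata

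Glycam1 and Csn2 each held 1 GAS match, beginning 145 and 93 bases before the start, and Wap and Lalba held none in this window. NFI sites numbered 2 in Wap, 4 in Lalba, 4 in Glycam1 and 0 in Csn2. Over all 32851 mouse promoters of the same length, 7.02% held TTCNNNGAA, against 6.19% for tested genes, 6.92% for genes called higher and 5.83% for genes called lower. The NFI site occurred in 42.8% of all promoters, in 39.1% for tested genes, in 37.9% for genes called higher and in 42% for genes called lower. Of the 198 promoters of genes called higher by 4-fold or more, 6.57% held the GAS core and 51% the NFI site. Among promoters of the casein and other milk protein genes, 3 of 24 held the GAS core and 14 held the NFI site. These matches are a description of letters, and binding was not measured in these libraries.

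Of 25 milk protein genes outside the locus, all tested, 14 rose and 2 fell, with a median log2 fold change of 3.05. Spp1, which encodes the phosphoprotein osteopontin, rose from 162, 13.7 and 44.8 at p6 to 7090.2, 3959 and 2485 at p18 (log2 fold change 5.94, standard error 1.05, adjusted p = 0.0116). Lpo, the antibacterial enzyme lactoperoxidase, had means of 1.29 ± 0.664 at p6 and 73.7 ± 24.1 at p18 (SD, n = 3 each; log2 fold change 5.89, standard error 0.38, adjusted p = 0.000125). Both genes kept their call when replicate 2 at p6 was left out.

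Trf, the iron carrier transferrin, stood at 4640.1, 1016 and 4048 at p6 and 34414, 35100 and 24098 at p18. Its lowest p18 library was far above its highest p6 library (log2 fold change 3.27, adjusted p = 0.00562). Wfdc18, of the same protein family as Wap, varied little within each stage, at 179.6, 204 and 269.8 at p6 and 4189.9, 3688 and 3909 at p18 (log2 fold change 4.17, adjusted p = 0.000125). The folate receptor Folr1 rose by a log2 fold change of 4.26 (adjusted p = 0.00384). The 2 genes of the list that fell were Gpx3, a secreted glutathione peroxidase, at -1.20, and Tspan1 at -1.53.

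Replicate 2 at p6 decided several other milk protein genes. Without it, 18 of the 25 genes rose, among them Pigr, the receptor that carries antibodies into milk, Cel, the bile salt-activated lipase of milk, Ltf, the iron-binding protein lactoferrin, and Btn1a1, the butyrophilin of the milk fat globule. Pigr stood at 58.4, 1.42 and 22.5 at p6 and 694, 648 and 633 at p18, with replicate 2 far below the other p6 libraries. Its log2 fold change was 4.60 (adjusted p = 0.0625) with all libraries and 4.03 (adjusted p = 0.000541) without that library. Btn1a1 stood at 437, 20.7 and 307 at p6 and 3209, 3046 and 1572 at p18, and its adjusted p went from 0.0745 to 0.000949.

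The 5 caseins together took 0.867, 0.0303 and 0.857% of the reads at p6 and 13.1, 12.5 and 11.1% at p18. With the 25 other milk protein genes the share was 1.4 ± 0.895% at p6 and 20 ± 2.65% at p18 (SD, n = 3), a difference of 18.6 percentage points (exact two-sided permutation test, p = 0.1, the smallest that 3 against 3 libraries allow). All 5 caseins passed the test with all libraries, and 4 of 5 did so without replicate 2 at p6. Csn1s2b was the one lost, at 7.53, 2.85 and 8.65 at p6 and 381, 110.3 and 73.4 at p18 (adjusted p = 0.0177 and 0.0736). Csn1s2a and Csn1s2b are duplicated genes that may share reads. Without replicate 1 at p6 none of the 5 passed, without replicate 3 at p6 2 passed, and without any 1 of the p18 libraries 3 passed.

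**Figure D2:**
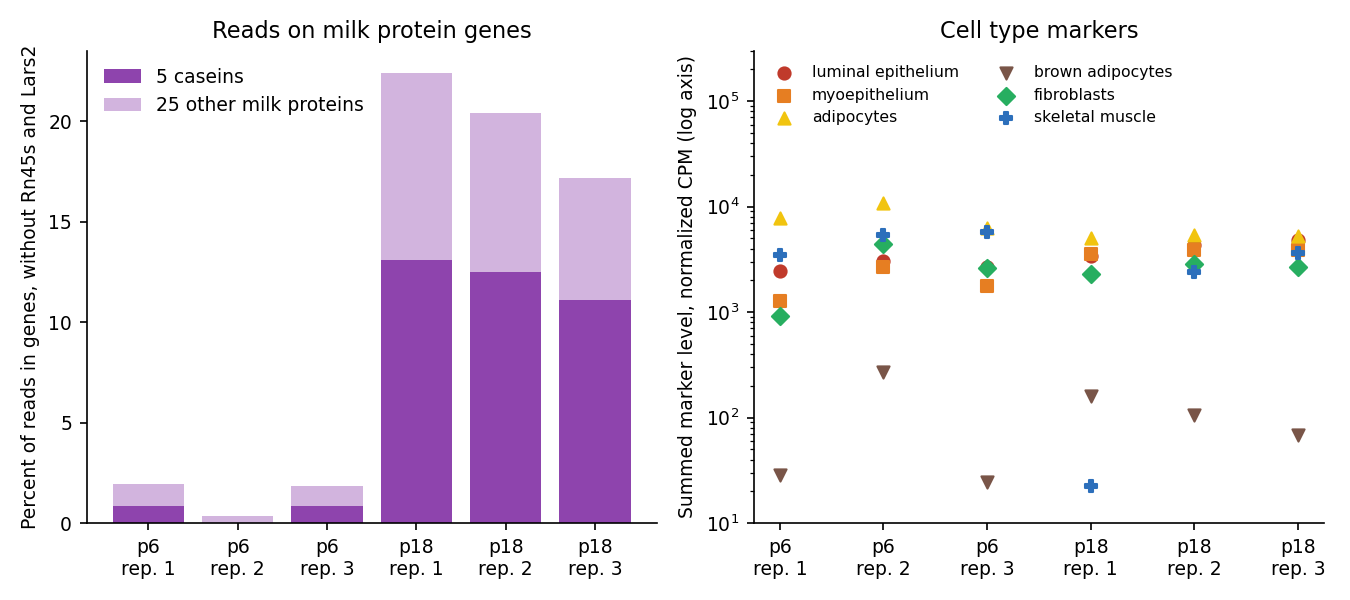
Left, percent of reads in genes (without Rn45s and Lars2) on the 5 caseins and on 25 other milk protein genes in each of 6 WT libraries. Right, summed normalized CPM of marker genes of cell types in the same libraries on a log axis, where skeletal muscle markers in replicate 1 at p18 (22.6) and brown adipocyte markers in replicate 2 at p6 (271) stand apart from the other libraries of their stage.

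Genes of lactose synthesis rose where they were called. Of 18 genes of lactose synthesis and glucose supply, 9 rose and 0 fell (median log2 fold change 0.86), and the counts were the same without replicate 2 at p6. Under library totals 7 rose and 1 fell. B4galt1, the galactosyltransferase that forms lactose with α-lactalbumin, stood at 168, 117 and 208 at p6 and 2350, 2628 and 1569.5 at p18. The lowest p18 library was far above the highest p6 library (log2 fold change 3.73, standard error 0.31, adjusted p = 0.000364).

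Carriers of glucose and of UDP-galactose were among the rises. The sodium-coupled glucose carrier Slc5a1 rose by 1.92 and the facilitative carrier Slc2a1 by 1.65 on the log2 scale. Slc35a2, which carries UDP-galactose into the Golgi, rose by 1.21 and Ugp2, which makes UDP-glucose, by 0.90. Nme1 and Nme2, neighbouring nucleoside diphosphate kinases of similar sequence that may share reads, rose by 1.22 and 1.46.

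Milk fat genes changed unevenly. Of 25 genes of lipid uptake, triglyceride assembly and droplet secretion, 15 rose and 2 fell (median 1.47), and without replicate 2 at p6, 17 rose and 1 fell. Of 22 genes of fatty acid synthesis, 7 rose and 3 fell (median 0.32), and under library totals this list flipped to 5 higher and 8 lower (median -0.18). The falls of this list also depended on the libraries, since 8 genes fell without replicate 1 at p6 against 7 that rose, and 1 or 2 fell without any other single library. Fabp3, a fatty acid binding protein, stood at 18.3, 6.05 and 6.68 at p6 and 1913, 2021 and 1557 at p18 (log2 fold change 7.49, standard error 0.50, adjusted p = 0.000156). Olah, the thioesterase that ends fatty acid chains at medium length, stood at 7.26, 0.89 and 8.98 at p6 and 665, 790.4 and 697 at p18 (log2 fold change 6.98, standard error 0.76, adjusted p = 0.00242). For both genes the p18 libraries lay close together and far above every p6 library.

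Xdh and Plin2, which with Btn1a1 take part in wrapping the fat droplet, rose by log2 fold changes of 3.10 and 2.86. The acyl-CoA synthetase Acsl4 stood at 78.4, 89 and 87.7 at p6 and 791, 1002 and 854 at p18 (log2 fold change 3.37, standard error 0.19, adjusted p = 0.000107). Its p6 libraries lay close together, far below those at p18. The transporter Abcg2, which exports riboflavin into milk, rose by 3.62, the small GTPase Rab18, found on lipid droplets, by 2.83 and the fatty acid carrier Cd36 by 1.94, and all 3 kept their call without replicate 2 at p6.

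Within fatty acid synthesis the genes went in different directions. The elongase Elovl1 rose by 1.98 and Acaca, which forms malonyl-CoA, by 1.01, whereas Mlxipl, the glucose-responsive transcription factor ChREBP, fell. Mlxipl stood at 121, 81.8 and 73.4 at p6 and 12.1, 16.2 and 16.8 at p18, with every p18 library far below every p6 library (log2 fold change -2.61, standard error 0.23, adjusted p = 0.000371). Fasn, the fatty acid synthase, stood at 3318, 12236 and 6622 at p6 and 6103, 8808 and 7189 at p18. Its groups overlapped, with replicate 2 at p6 the highest of all 6 libraries (log2 fold change 0.00, standard error 0.45, adjusted p = 0.995). The desaturase Scd1 had a log2 fold change of -0.71 and an adjusted p of 0.259.

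The calls of several genes used by adipocytes as well as secretory cells depended on replicate 2 at p6. Cidea, which enlarges lipid droplets in both cell types and also marks brown fat, stood at 6.46, 67.5 and 2.97 at p6 and 143, 81 and 41.6 at p18. With all libraries its log2 fold change was 1.77 (adjusted p = 0.4), and without that library 4.28 (adjusted p = 0.0218). In that library Ucp1, which defines brown adipocytes, was at 118 normalized CPM, against 0 to 0.656 in the other 5. Dgat2, which forms triglyceride, was called lower only with that library (-1.33, adjusted p = 0.0476, against -0.997, adjusted p = 0.107). The lipase Lpl passed the test only without it, with a log2 fold change of 0.85 (adjusted p = 0.039). The part of the fat content of the sample in these values was not tested.

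Genes of cholesterol synthesis rose where they were called, at a share near that of all genes. Of 25 genes, 4 rose and 0 fell (median 0.22), with the same counts without replicate 2 at p6, and under totals 4 rose and 3 fell with a median of -0.28. The genes that rose were Hsd17b7 (1.93), Mvd (1.56), Ebp (1.37) and Scap (0.94), and the first 3 encode enzymes of the pathway.

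Most genes of the machinery that makes and exports secreted proteins rose. Of 50 genes of ER translocation, folding and glycosylation, 44 rose and 0 fell (median 1.14). Without replicate 2 at p6, 44 again rose, of which 43 were shared, and under totals 29 rose and 0 fell. The rises numbered 39 without replicate 3 at p6, and 34, 33 and 37 without replicate 1, 2 or 3 at p18. Ssr4, a subunit of the translocon-associated complex, stood at 33.6, 30.2 and 53 at p6 and 294, 208 and 215 at p18 (log2 fold change 2.61, standard error 0.25, adjusted p = 0.000443). The signal peptidase subunit Sec11c stood at 39.5, 23 and 44.8 at p6 and 203, 151 and 150.2 at p18 (log2 fold change 2.23, standard error 0.25, adjusted p = 0.000911). In neither gene did the groups overlap, and replicate 1 was the highest at p18 in both.

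Sec61b and Sec61g, subunits of the channel through which proteins enter the ER, rose by 2.43 and 2.19 on the log2 scale. Hspa5, the main ER chaperone (BiP), stood at 338, 462 and 530.1 at p6 and 1094, 1222 and 898 at p18 (log2 fold change 1.27, standard error 0.23, adjusted p = 0.00573). P4hb, a protein disulfide isomerase, rose by 1.67. Regulators of the unfolded protein response were less uniform, with 9 of 25 higher and 1 lower (8 and 1 without replicate 2 at p6, 4 and 0 without replicate 2 at p18), and the balance turned to 4 higher and 6 lower under totals. Xbp1 and Atf4, transcription factors of that response, rose by 1.48 and 1.00 (adjusted p = 0.0207 and 0.0027), and the sensor Ern1, whose product splices Xbp1 mRNA, fell by 0.61 (adjusted p = 0.017).

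Vesicle traffic from the ER to the Golgi moved with the ER list. Of 43 genes tested, 36 rose and 0 fell (median 0.94), 35 rose without replicate 2 at p6, 23 without replicate 2 at p18, and under totals 21 rose and 2 fell. Sec23b, an inner coat protein of the vesicles that leave the ER, stood at 42.9, 48.8 and 55.9 at p6 and 248, 241 and 151 at p18 (log2 fold change 2.11, standard error 0.21, adjusted p = 0.000552), and the groups did not overlap. The cargo receptor Surf4 rose by 1.70 and the fusion protein Bet1 by 1.68. Rab1a was not among the gene symbols of the counts.

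**Figure D3:**
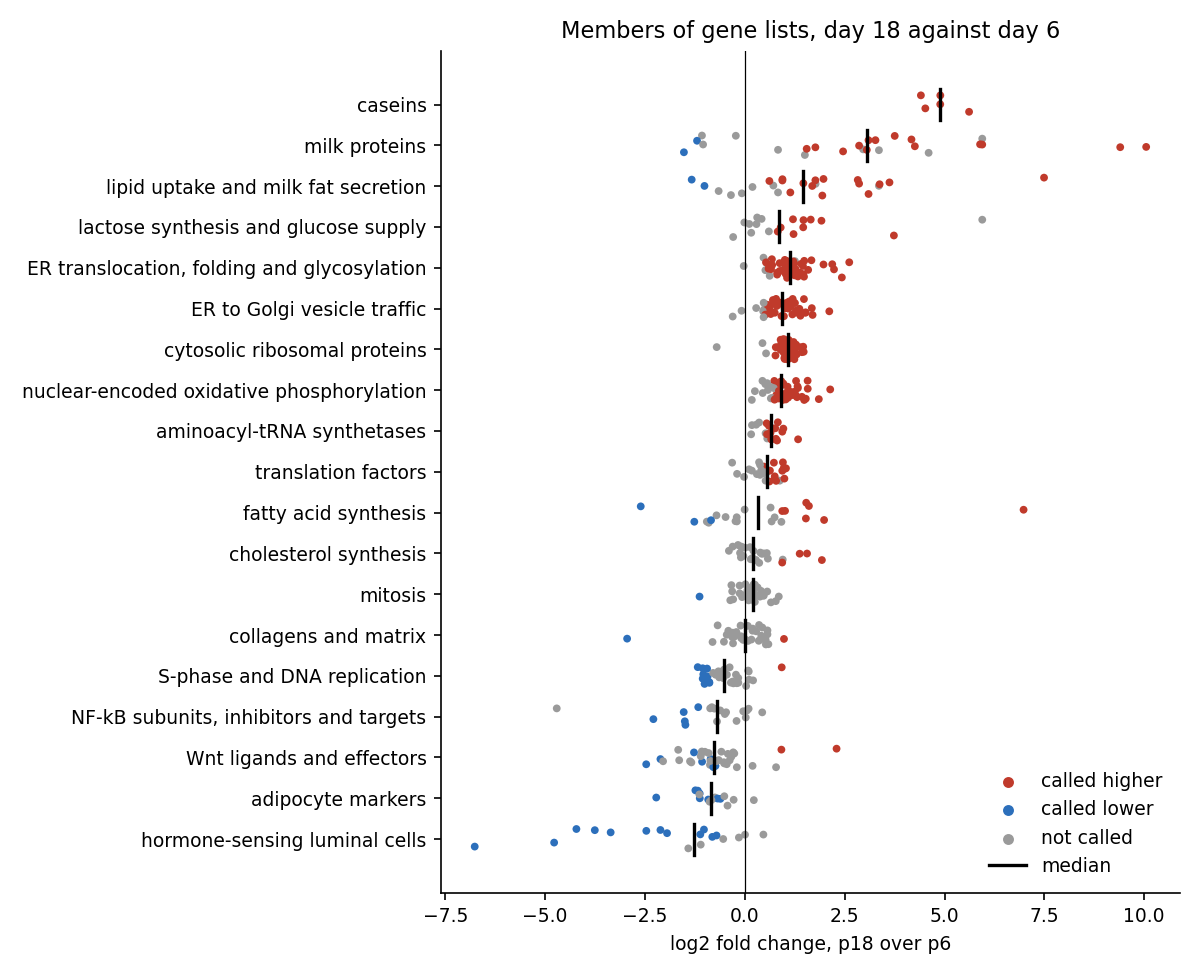
Log2 fold change (p18 over p6, horizontal axis) of each tested member of 19 of the lists, 1 row per list, with called members in colour and the median as a vertical bar. Members of the ER, vesicle traffic, ribosomal protein and oxidative phosphorylation lists lie almost wholly to the right of 0, and those of the hormone-sensing list mostly to the left.

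The supply of amino acids showed opposite changes within 1 class of genes. Of 27 amino acid transporters, 6 rose and 6 fell (median -0.02), and without replicate 2 at p6, 4 rose and 6 fell. The rises numbered 2 without replicate 2 or 3 at p18, and under totals 2 rose and 9 fell (median -0.50). Slc7a5, the light chain of the carrier of large neutral amino acids, stood at 32.1, 46.6 and 45.3 at p6 and 199, 286 and 209 at p18 (log2 fold change 2.48, standard error 0.21, adjusted p = 0.000364). The glutamine carrier Slc1a5 went the other way, at 558, 471 and 392 at p6 and 143, 185 and 147 at p18 (log2 fold change -1.58, standard error 0.20, adjusted p = 0.00116). In each the 2 stages did not overlap, and both calls held without replicate 2 at p6.

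Of the 20 cytoplasmic aminoacyl-tRNA synthetases, which charge tRNAs, 14 rose and 0 fell (median 0.65), 13 rose without replicate 2 at p6, and 2 rose under totals. The count rested more on the p18 libraries, since 4 rose without replicate 2 and 8 without replicate 3 at p18. Qars, the glutamine enzyme, had the largest change, 1.33 (standard error 0.17, adjusted p = 0.00138). Of 18 tested genes of the amino acid stress response, 4 rose and 0 fell (median 0.09, and -0.40 under totals with 3 higher and 2 lower), among them asparagine synthetase (Asns, 1.39) and the ATF4 target Trib3 (1.55).

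Ribosomal proteins and the respiratory chain rose by moderate amounts. Of 53 cytosolic ribosomal protein genes, 50 rose and 0 fell (median 1.09), with the same counts when any 1 of the p6 libraries was left out, but 31 rose without replicate 2 at p18, and 20 rose under totals. Rplp0 stood at 548, 789 and 906 at p6 and 1589, 1769.8 and 1801 at p18 (log2 fold change 1.20, standard error 0.24, adjusted p = 0.00852). Replicate 1 at p6 was the lowest of the 6 libraries, and the groups did not overlap. Ribosomal protein genes have processed copies in the genome that may share reads with them. Of 28 translation factors, 13 rose and 0 fell, 14 rose without replicate 2 at p6, 5 without replicate 2 and 6 without replicate 3 at p18, and under totals 1 rose and 3 fell.

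Of 49 nuclear genes of oxidative phosphorylation, 38 rose and 0 fell (median 0.91), 46 rose without replicate 2 at p6, and 13 rose under totals. The call depended on the libraries, with 20 to 46 members called when single libraries were left out. Ndufc2, a subunit of complex I, stood at 24.6, 38.3 and 39.9 at p6 and 148, 139.9 and 166 at p18 (log2 fold change 2.14, standard error 0.20, adjusted p = 0.000435). In ΔSE tissue 9 of the 49 rose (median 0.27), a share near the 19.2% of all genes called higher in its own fit.

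These lists hold genes of short exonic length, and over all tested genes such genes were called higher more often than lower. Exonic length here is the union of all annotated exons of a gene, and the length of the transcripts present was not measured. The median exonic length was 2007 bases for the ribosomal proteins and 1831 bases for oxidative phosphorylation. Among genes under 1 kb of exonic length 9.37% were higher and 0.914% lower, from 1 to 2 kb 15.7% and 2.46%, and at 8 kb or more 7.75% and 17.6%. With the ribosomal protein and oxidative phosphorylation genes taken out, 14.3% of genes of 1 to 2 kb were higher. The ER list had a median length of 3687.5 bases, in a class (2 to 4 kb) with 15% higher and 4.99% lower. Genes with under 44% GC were called higher in 15% of cases and those with 60% or more in 5.28%. RNA quality was not given for these libraries, and the part of fragment length or degradation in these values was not tested.

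Ion transport genes included some of the largest rises. Of 32 genes of calcium, zinc, phosphate and chloride transport, 11 rose and 5 fell (median 0.76), and without replicate 2 at p6, 12 rose and 4 fell. Without replicate 3 at p6, 7 rose, and without replicate 2 at p18, 2 fell. The phosphate carrier Slc34a2 stood at 20.2, 1.87 and 9.31 at p6 and 841, 677 and 310.1 at p18 (log2 fold change 5.90, standard error 0.95, adjusted p = 0.0118). Atp2c2, a calcium and manganese pump of the Golgi, stood at 17.4, 4.98 and 7.91 at p6 and 234, 168 and 102 at p18 (log2 fold change 4.09, standard error 0.54, adjusted p = 0.00409). All p18 libraries of these genes lay well above the p6 libraries.

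Atp2b2, the pump that moves calcium across the apical membrane into milk, stood at 0.672, 1.6 and 1.57 at p6 and 154, 71 and 17.7 at p18. It ranked among the largest rises with all libraries (log2 fold change 5.91, standard error 1.00, adjusted p = 0.0141) and was not called without replicate 2 at p6 (log2 fold change 6.06, adjusted p = 0.0851), where its p18 libraries still spanned 17.7 to 154. The calcium channel Orai1 rose by 2.76 and the zinc carrier Slc30a2 by 2.43, while Stim1, the ER calcium sensor that opens Orai channels, had a log2 fold change of -1.01 (adjusted p = 0.00505) and the sodium channel subunit Scnn1a one of -1.81.

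Of 25 tight junction genes, which seal the epithelium at the onset of milk secretion, 8 rose and 1 fell, with the same counts without replicate 2 at p6 and a balance of 3 higher and 4 lower under totals. Without replicate 2 at p18, 5 rose and 0 fell. Cldn8 had the largest rise, from 42.1, 31.1 and 47.1 to 265, 283 and 216 (log2 fold change 2.67, standard error 0.20, adjusted p = 0.000206). The epithelial claudin Cldn3 did not pass, at 32.8, 58 and 64.5 at p6 and 57.7, 99.2 and 111 at p18 (log2 fold change 0.78, adjusted p = 0.101), and its groups overlapped.

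Genes of the prolactin pathway were called in both directions. Of 23 genes, 2 rose and 4 fell, and without replicate 2 at p6, or without any 1 of the p18 libraries, 1 rose and 2 fell. Under totals 1 rose and 12 fell. The receptor Prlr stood at 465, 573 and 242 at p6 and 234, 215 and 180.4 at p18, a fall (log2 fold change -1.02, adjusted p = 0.0335) that was not called without that library (-0.76, adjusted p = 0.0654). Stat5a stood at 170.1, 113 and 198 at p6 and 233, 309 and 262 at p18, a rise of 0.74 (adjusted p = 0.0395) that likewise was not called without it (0.54, adjusted p = 0.0693). Jak2 did not pass (-0.30, adjusted p = 0.23), nor did the STAT5 target Cish, at 58.6, 19.6 and 40.5 at p6 and 56.1, 56.1 and 58.7 at p18 (0.53, adjusted p = 0.295). The kinase gene Akt1 rose by 1.32 and kept its call.

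Among 23 transcription factors of alveolar cells, 7 rose and 2 fell, whereas under totals 4 rose and 11 fell. Without replicate 2 at p6 the counts were the same, but only 1 of the falls was shared. Without replicate 1 at p6 3 fell, and without any 1 of the p18 libraries 0 fell. Elf5, a driver of the alveolar fate, stood at 213, 67 and 286 at p6 and 1070.2, 1350.5 and 1006 at p18. The groups did not overlap, and replicate 2 was the lowest at p6 (log2 fold change 2.60, standard error 0.48, adjusted p = 0.00925). Bhlha15 (MIST1), a factor of secretory cells in several glands, stood at 11.8, 1.51 and 6.43 at p6 and 88.4, 107 and 63.6 at p18 (log2 fold change 3.75, standard error 0.65, adjusted p = 0.0116). Id2, which alveolar cells need to differentiate, rose by 1.88 (adjusted p = 0.00296). Nfib did not pass the test, at 969, 707 and 756 at p6 and 693, 694 and 736 at p18 (-0.20, adjusted p = 0.511), and its groups overlapped.

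Hormone-sensing genes fell. Of 18 genes of hormone-sensing luminal cells and their paracrine ligands, 0 rose and 12 fell (median -1.26), and without replicate 2 at p6, 1 rose and 11 fell. Areg, which encodes amphiregulin and lies at chr5:91139599-91148432 (GRCm38), stood at 49.5, 148 and 35.9 at p6 and 0.966, 0.219 and 0.915 at p18. Every p18 library was under 1 normalized CPM while replicate 2 was the highest at p6 (log2 fold change -6.76, standard error 0.82, adjusted p = 0.00382). Its log2 fold change without that library was -5.90 (adjusted p = 2.53e-05).

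Tnfsf11, the ligand RANKL, at chr14:78277445-78308043, stood at 41.4, 109 and 39.8 at p6 and 2.9, 0.656 and 3.29 at p18 (log2 fold change -4.77, standard error 0.65, adjusted p = 0.0048). Foxa1, at chr12:57540628-57546916, a factor that opens chromatin for the oestrogen receptor, stood at 21.1, 60.04 and 12.4 at p6 and 1.45, 1.09 and 2.38 at p18 (log2 fold change -4.22, standard error 0.70, adjusted p = 0.00797). In both genes replicate 2 was the highest at p6, and the changes without it were -4.14 and -3.32, both called. The p18 libraries lay below all p6 libraries, which the rule for the largest falls required.

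Calca, the precursor of calcitonin, stood at 186, 116 and 97.7 at p6 and 7.73, 5.57 and 15.9 at p18 (log2 fold change -3.76, standard error 0.44, adjusted p = 0.00224), and here replicate 1 was the highest at p6. Cited1, a coactivator of the oestrogen receptor, stood at 28.5, 46.5 and 27.1 at p6 and 2.17, 4.81 and 2.93 at p18 (log2 fold change -3.36, standard error 0.33, adjusted p = 0.000529). Neither gene overlapped between stages, a condition of the rule for the largest falls by which both were named. The receptors themselves fell by less, with log2 fold changes of -1.12 for Pgr (adjusted p = 0.0251) and -0.81 for Esr1 (adjusted p = 0.0174), and both kept their call without replicate 2 at p6. Igf2 passed only without that library, as a rise of 1.54, having stood at 9.95, 109.8 and 10.6 at p6.

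**Figure D4:**
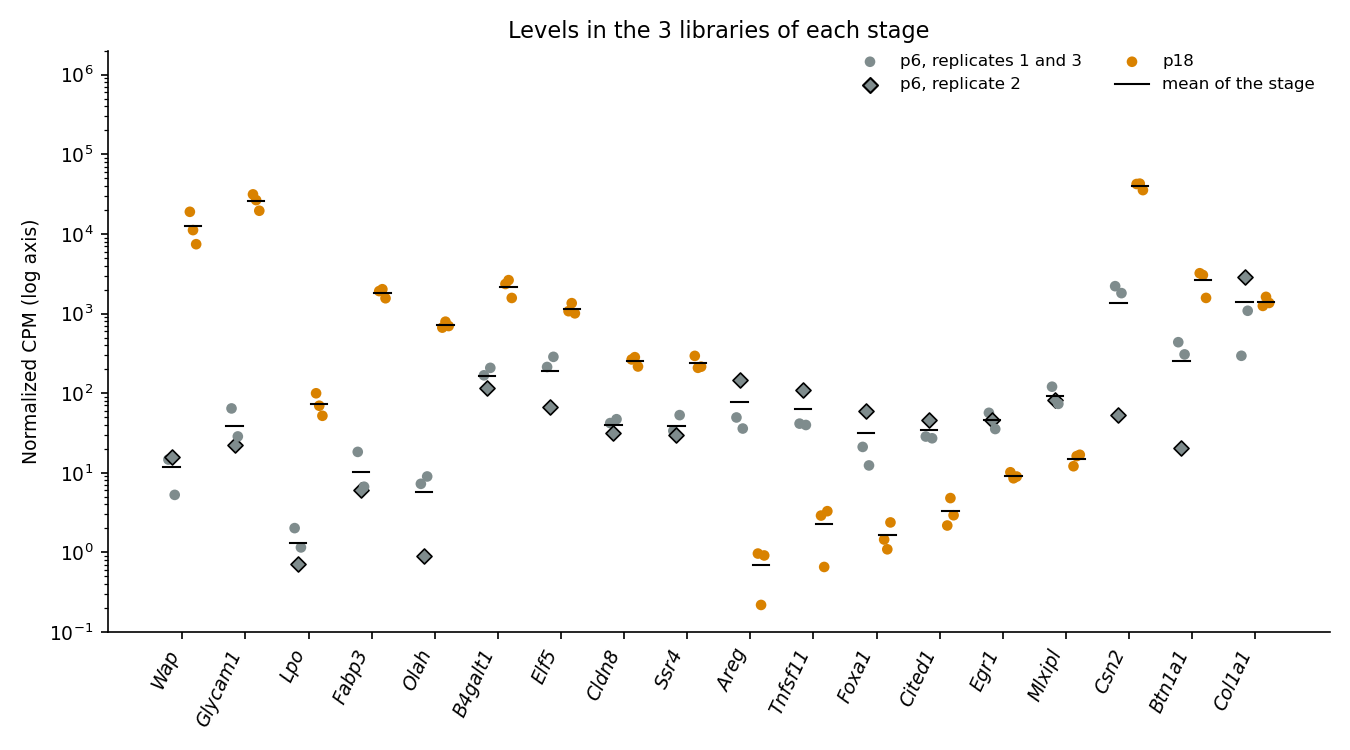
Normalized CPM (log axis) of 18 genes in each WT library, p6 and p18 side by side, with a line at the mean of each stage. For Wap, Fabp3, Olah, B4galt1 and Cldn8 the stages are apart in every library, whereas for Csn2, Btn1a1 and Col1a1 replicate 2 at p6 stands away from the other p6 libraries.

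Among 15 tested genes of the EGF family, Areg, Nrg4 (-1.97) and Tgfa (-1.50) fell and 1 rose. That gene was Egf itself, found in milk as a growth factor, at 9.95, 5.25 and 6.68 at p6 and 28.6, 36.3 and 27.8 at p18 (log2 fold change 2.10, standard error 0.26, adjusted p = 0.00114). Of 34 Wnt ligands and effectors, 2 rose and 7 fell (median -0.76), and without replicate 2 at p6, 3 rose and 7 fell. The number of falls was 14 without replicate 1 at p6, 2 without replicate 1 or 2 and 4 without replicate 3 at p18. Wnt4 stood at 35.9, 52 and 33 at p6 and 8.82, 6.56 and 12.4 at p18 (log2 fold change -2.11, standard error 0.27, adjusted p = 0.00138), and Wnt7b and the feedback target Axin2 fell, at -2.47 and -0.74. Lgr4, a receptor for R-spondins, rose by 2.30 (adjusted p = 0.00143).

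Cell cycle genes gave a mixed picture. Of 32 genes of S phase and DNA replication, 1 rose and 9 fell (median -0.53), and without replicate 2 at p6, 0 rose and 8 fell. The falls numbered 12 without replicate 1 at p6, 4 without replicate 3 at p6 or replicate 1 at p18, 2 without replicate 2 at p18, and 22 under totals. Of 32 mitosis genes 0 rose and 1 fell, with a median of 0.20 that turned to -0.30 under totals (0 higher and 3 lower). Mki67, the standard marker of dividing cells, stood at 231, 274 and 378 at p6 and 317, 265 and 365 at p18, with overlapping groups (log2 fold change 0.10, adjusted p = 0.782). Pcna did not pass either (0.21, adjusted p = 0.584). Among the falls were Uhrf1 (-1.18), needed to copy DNA methylation, and the helicase subunits Mcm7 (-1.06) and Mcm3 (-0.93).

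Subunits, inhibitors and targets of NF-kB, the transcription factor of inflammation, fell in WT tissue where they were called. Of 19 tested genes 0 rose and 5 fell (median -0.70), with the same counts without replicate 2 at p6, 3 falls when replicate 1 or 3 at p6 was left out, and 2 when replicate 1 or 2 at p18 was. Besides Icam1 and Tnf the falls were the subunit Relb (-1.17), the inhibitor Nfkbie (-1.53) and Tnfaip3 (-1.50), whose product dampens the pathway. The adhesion molecule Icam1 stood at 76.1, 49.4 and 63.2 at p6 and 21, 18.1 and 27.9 at p18 (log2 fold change -1.49, standard error 0.22, adjusted p = 0.00237), and the cytokine gene Tnf stood at 11.7, 4.71 and 8.82 at p6 and 2.42, 0.874 and 1.83 at p18 (log2 fold change -2.29, standard error 0.47, adjusted p = 0.0094). In neither did the stages overlap. Macrophage markers, from cells that make Tnf, summed to 382, 555 and 722 at p6 and 509, 550.3 and 604 at p18. Their part in these falls was not tested. In ΔSE tissue, in a fit of its own, 6 genes of this list rose and 3 fell (median 0.15). Over all genes of that fit 19.2% were higher and 21.9% lower.

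Markers of cell types were followed in the same 6 libraries. Of 14 luminal epithelial markers, 3 rose and 0 fell, 7 rose without replicate 2 at p6, and under totals 1 rose and 2 fell. Krt8 and Krt18, keratins of luminal cells, had log2 fold changes of 0.58 (adjusted p = 0.125) and 0.69 (adjusted p = 0.053) with all libraries, and 0.82 (adjusted p = 0.0312) and 0.86 (adjusted p = 0.0234) without that library. Luminal marker levels summed to 2471, 3029 and 2694 at p6 and 3378, 4339 and 4787 at p18. Of 14 myoepithelial markers 4 rose (6 without replicate 2 at p6) and 0 fell (4 without replicate 1 at p6), yet their median was -0.16. Under totals 4 rose and 3 fell (median -0.64). The rises included Acta2 (1.71), the smooth muscle actin of contractile cells. Krt14, the first gene of this list, did not pass (-0.33, adjusted p = 0.64), and its groups overlapped.

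Of 16 adipocyte markers 0 rose and 8 fell (median -0.86), and without replicate 2 at p6, 6 fell. Without replicate 3 at p6 12 fell, without replicate 1 or 2 at p18 4 and without replicate 3 at p18 3. Their sum was 7736, 10793 and 6246 at p6 and 4991, 5407 and 5309 at p18, with every p18 library below every p6 library. The hormone gene Adipoq stood at 421, 742 and 414 at p6 and 275, 327 and 337 at p18 and did not pass (-0.75, adjusted p = 0.0575), while the droplet protein Plin1 fell with a log2 fold change of -1.24 (adjusted p = 0.00997). Of 10 markers of nerve and Schwann cells 6 fell and 1 rose, but 0 fell without replicate 2 at p18 and 3 without replicate 1 or 3 at p18. Among the markers of brown adipocytes, T and NK cells, red blood cells and skeletal muscle no gene passed the test with all libraries, and 2 markers of brown adipocytes rose without replicate 2 at p6. The medians of T and NK cell markers (0.17, and -0.33 under totals) and red blood cell markers (0.39 and -0.10) changed sign with the scaling. Of the 20 endothelial markers 1 rose and 1 fell, and under totals 1 rose and 10 fell (median -0.23 and -0.74). Of the 11 fibroblast markers 2 fell, and of the 13 macrophage markers 1 rose, while under totals 0 rose and 1 fell. Of the markers of B cells and of mast cells 1 each fell, and 1 of 4 tested markers of epidermis and hair rose, with a median of 0.43 that turned to -0.08 under totals. Some of these small counts moved with single libraries, with 4 fibroblast markers lower without replicate 1 at p6, 3 endothelial markers lower without replicate 3 at p6, and 0 markers of B cells and mast cells lower without replicate 2 or 3 at p18. Of the markers of epidermis and hair and of red blood cells 4 each had no read at either stage.

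Collagens and matrix genes had a median of 0.00 in 35 genes, with 1 higher and 1 lower (0 and 6 under totals, median -0.48), and this balance depended on replicates 1 and 2 at p6. Without replicate 1 at p6, 1 rose and 6 fell. In replicate 2 at p6 the median of the list was 1.34 above the mean of the other p6 libraries on the log2 scale. Without replicate 2 at p6, 8 rose and 1 fell and the median was 0.60. Col1a1, the main fibrillar collagen, stood at 295, 2847 and 1084 at p6 and 1247, 1620.4 and 1358 at p18. In ΔSE tissue 0 rose and 29 fell (median -1.04) in a fit of its own, beside 19.2% of all genes higher and 21.9% lower. Col8a1, a short-chain collagen, fell in each fit, at 25, 37.9 and 8.98 at p6 and 1.93, 3.61 and 3.66 at p18 in WT tissue (log2 fold change -2.95, and -2.44 without replicate 2 at p6).

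The largest rises, beside genes already named, were in genes of varied roles. Rgs8, a regulator of G protein signals, stood at 0.538, 0.178 and 0.33 at p6 and 30.9, 126 and 131 at p18 (log2 fold change 8.14, standard error 0.82, adjusted p = 0.00191). Lao1, an L-amino acid oxidase of milk that forms hydrogen peroxide, stood at 25.6, 1.96 and 7.42 at p6 and 3179, 3172 and 2043 at p18 (log2 fold change 7.94, standard error 1.01, adjusted p = 0.00399). The sodium-proton exchanger Slc9a4 stood at 1.61, 0.356 and 0.989 at p6 and 201, 161 and 95.6 at p18 (log2 fold change 7.34, standard error 0.47, adjusted p = 0.000319). In these 3 genes the groups were far apart, and the spread within p18 was small beside the distance between stages. Drd4, a dopamine receptor, Sftpd, a collectin that binds microbes, and Aqp3, a channel for water and glycerol, rose by 6.69, 6.31 and 5.80, and all of these genes were also called in ΔSE tissue.

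The largest falls, beside the hormone-sensing genes, included Capn8, a calpain protease, at 19.4, 39.1 and 10.3 at p6 and 0.604, 0.874 and 1.55 at p18 (log2 fold change -4.45, standard error 0.58, adjusted p = 0.00215). Agtr1a, an angiotensin receptor, stood at 131, 139.8 and 55.6 at p6 and 10.3, 9.07 and 12.4 at p18 (log2 fold change -3.35, standard error 0.35, adjusted p = 0.001). Myb, a transcription factor of progenitor cells, stood at 28.4, 54.6 and 19.7 at p6 and 3.99, 2.4 and 4.85 at p18 (log2 fold change -3.18, standard error 0.43, adjusted p = 0.00227). None of the 3 overlapped between stages, but the rule that named them, given below, required this. Bmpr1b, a receptor for bone morphogenetic proteins, had a log2 fold change of -2.61. Myl2, a muscle light chain, ranked here too, but it stood at 22.7, 0.356 and 8.49 at p6 and 0, 0.219 and 0 at p18. The summed muscle markers were at 5431 in replicate 2 at p6 and 3642 in replicate 3 at p18. The part of muscle content in the fall of Myl2 was not tested. Of the 6 fits with a library left out the call of Myl2 held only in that without replicate 2 at p6.

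Some genes had no read in any library of 1 stage. At p6 this held for 31 tested genes, of which 8 were called higher with and without replicate 2, and at p18 for 61, of which 9 were called lower in both fits. Such a gene passed the filter on total reads only through its reads at the other stage. The direction of its change was therefore fixed before the test. These counts, and the fold limits below, describe genes selected by the stage at which they had reads, and no conclusion on direction is drawn from them. A count of 0 over the 3 libraries allows up to 3 reads, or 0.0974 normalized CPM at p6 and 0.106 at p18, by counting error only. Against that limit Sgk2, a kinase that acts on ion channels, was at least 46.9-fold higher at p18, at 0, 0 and 0 at p6 and 8.09, 4.04 and 1.55 at p18. Upk3a, a uroplakin, was at least 21-fold lower at p18, having stood at 0.538, 4.8 and 1.32 at p6.

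Most of the changes survived without replicate 2 at p6. With 2 libraries at p6 against 3 at p18, 2076 of 16583 genes were higher (12.5%) and 1343 lower (8.1%). Of the 2109 genes called higher with all libraries 1825 were kept (86.5%), and of the 1425 called lower 1092 were kept (76.6%), and none turned direction. Over all genes the median was -0.04. The calls lost were mostly those near the threshold. All 1294 genes with an adjusted p under 0.01 were kept, against 1623 of 2240 (72.5%) with an adjusted p from 0.01 to 0.05. Of the 617 lost, 615 had the same sign, 2 were no longer tested, and 609 still had an unadjusted p under 0.05.

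A call was kept if its adjusted p was again under 0.05 in a fit on the remaining libraries, so the split by p was largely built in. By the size of the change, the share kept did not rise steadily. Genes changed by at least 2-fold and under 4-fold were kept in 91.3% of cases (1167 of 1278), those changed by 4-fold or more in 85.1% (330 of 388) and those under 2-fold in 76% (1420 of 1868). Abundant genes that were lost include the rises of Ly6e, at 483, 452 and 612 at p6 and 711, 937 and 838 at p18 (log2 fold change 0.68 with all libraries and 0.60 without replicate 2), and of Rrbp1, a ribosome binding protein of the ER (0.57 and 0.62). The falls that were lost include Macf1, a linker of the cytoskeleton (-0.74 and -0.69), glutamine synthetase Glul (-0.76 and -0.63) and the fat droplet gene Cidec (-0.61 and -0.45). In each of these genes the estimate kept its sign.

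A further 251 genes were called higher and 251 lower only without that library. The abundant gains upward were Btn1a1 and Lpl, described above, the elongation factor Eef2 (0.97 against 0.88 with all libraries), the basement membrane collagens Col4a1 (0.95 against 0.52) and Col4a2 (0.83 against 0.40) and the matrix protein Sparc (1.18 against 0.59). Those downward included Dst, which links the cytoskeleton to the membrane (-0.93 against -0.83), and Dock9, a regulator of small GTPases (-0.87 against -0.70).

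Replicate 2 at p6 was not the library on which the number of calls leaned most. Leaving out replicate 2 at p18 gave 907 genes higher and 448 lower and kept 43 and 31.1% of the calls, and leaving out replicate 3 at p18 gave 1162 and 566. Leaving out replicate 1 at p6 gave 2066 and 1429, close to the full counts. In none of the 6 fits was a gene called against its direction with all libraries. Called in all 6 were 861 genes higher and 379 lower, and these include Wap, Glycam1, Fabp3, Olah, B4galt1, Cldn8, Areg, Tnfsf11, Foxa1, Cited1 and Mlxipl.

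**Figure D5:**
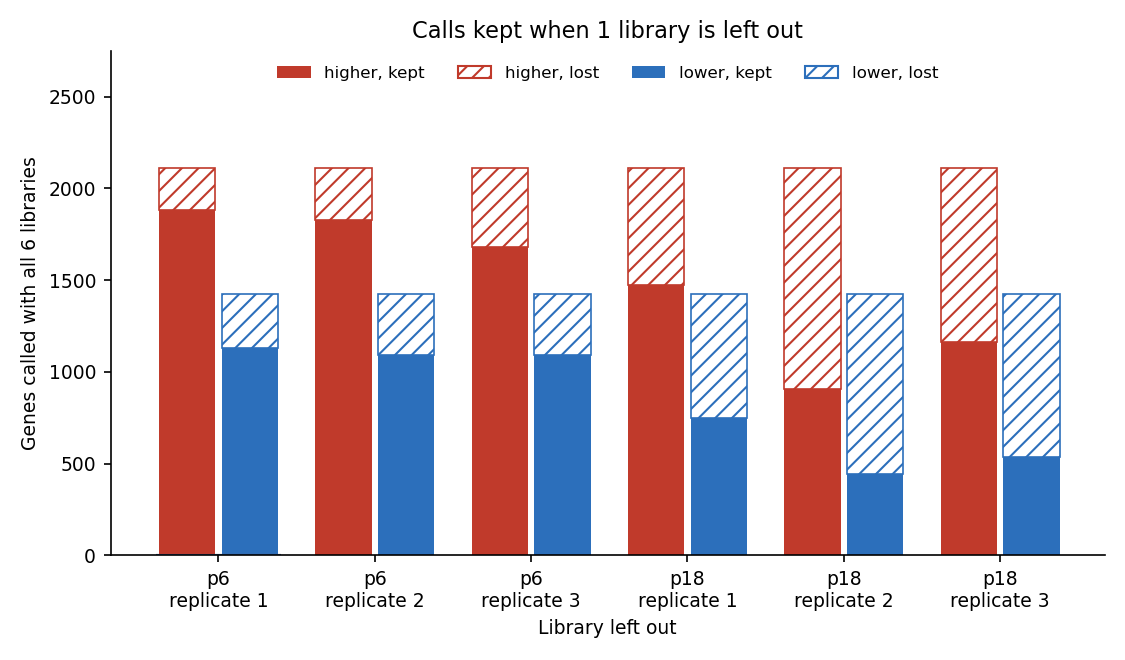
Of the genes called with all 6 WT libraries (2109 higher, red, and 1425 lower, blue), the number kept (filled) and lost (hatched) when the library on the horizontal axis was left out. Leaving out a p18 library lost more calls than leaving out a p6 library, and the fewest were kept without replicate 2 at p18 (906 higher and 443 lower).

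ΔSE tissue, which shares no library with the WT comparison, gave a second reading. For the caseins it is not a neutral one, since the study reports reduced Csn1s2b mRNA at p18 after this deletion. In its own fit 3290 of 17111 genes were higher at p18 (19.2%) and 3747 lower (21.9%). Of the genes called higher in WT tissue 1584 (75.1%, and 48.1% of the ΔSE list) were called higher there too and 4 lower. Of those called lower in WT tissue 1094 (76.8%, and 29.2% of the ΔSE list) were called lower and 7 higher. WT calls kept without replicate 2 at p6 were called the same way in ΔSE tissue in 76.5% (higher) and 75.5% (lower) of cases, and calls lost in 66.2% and 80.8%. Calls gained without that library were called the same way in 27.1% and 28.7% and the opposite way for 35 and 18 genes.

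Of the 861 and 379 genes called in all 6 fits, 753 and 347 were also called the same way in ΔSE tissue. The large changes were near each other in the 2 genotypes for some genes, with log2 fold changes in WT and ΔSE tissue of 4.17 and 3.81 for Wfdc18, 5.89 and 5.68 for Lpo and -2.61 and -2.25 for Mlxipl. Others lay further apart, such as Areg at -6.76 in WT and -3.56 in ΔSE tissue. Of the 5 caseins 4 were called higher in ΔSE tissue. In the same order the values were 4.89 and 9.22 for Csn2, 4.41 and 7.97 for Csn1s1, and 5.61 and 9.68 for Csn1s2a. For Csn3 they were 4.52 and 5.63. Csn1s2b, at 4.89 and 1.40, was not called in ΔSE tissue. A test of the difference itself, the interaction of stage and genotype over 14 libraries, called 22 of 17842 genes with a larger change in WT (0.123%) and 39 with a smaller one (0.219%), where smaller means a lower signed log2 fold change. Areg (adjusted p = 0.103), Wfdc18 (adjusted p = 0.627) and the 5 caseins did not pass it. Without replicate 2 at p6 the counts were 563 and 495, many times the number with all libraries. In that fit 3 of the 5 caseins were called with a smaller change in WT.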

How the data were processed

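Total RNA from frozen mammary tissue of WT mice was depleted of ribosomal RNA and made into stranded paired-end libraries. The authors trimmed reads with Trimmomatic (version 0.36), used STAR (version 2.5.4a) for alignment to mm10 (GRCm38) and took counts from HTSeq (version 0.9.1). Raw counts per gene symbol were deposited. The annotation and the strand setting of the counting are not given in the sources used here, so reads of overlapping genes on opposite strands may not be separated. The study's own later steps are not part of the counts.

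Genes with at least 10 reads in total over the 6 WT libraries were tested with edgeR (version 4.0.16, R version 4.3.3) by glmQLFit with robust estimation and glmQLFTest. Rn45s and Lars2 were left out of library sizes, and TMM factors were 0.8165 to 1.215. P-values were adjusted by the Benjamini-Hochberg method over 16918 genes, and calls are those under 0.05. Standard errors were derived from the F statistic. In a single library, 3 reads (the limit for a count of 0) were worth 0.247 to 0.403 normalized CPM. The ΔSE libraries were fitted alone and then with WT in 1 model for the interaction. The fits were tested on simulated counts.

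The libraries compared and all 31 gene lists and 14 cell type lists were chosen with earlier results of these data known. Genes are named by a rule, namely the caseins, Cish and Krt18, the 15 largest rises and falls among called genes with at least 50 normalized counts and no overlap, the first member of each list and up to 3 called members with the smallest p, up to 6 abundant calls lost or gained without replicate 2 at p6, and 5 genes without a read in 1 stage. Other list members, such as Lalba, Pigr, Cel, Ltf, Cidea, Ucp1, Scd1, Igf2, Id2 and Adipoq, were chosen after their values were seen. Some results of this rule are not reported here. Gene positions and exonic lengths were taken from GENCODE vM21 (GRCm38) and promoters from RefSeq (GRCm38.p6). Lengths and GC were found for 99.1% of tested genes.

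Alternatives were each library left out, DESeq2 (version 1.42.0), its size factors in edgeR, library totals, Rn45s and Lars2 in library sizes, milk genes out of library sizes, no filter, filterByExpr, the replicate number as a block, 1 factor of unwanted variation, 1 model of 14 libraries and a minimum log2 fold change of 1. The sample titles give replicate numbers and do not say whether p6 and p18 tissue came from different animals. Deviations of same-numbered libraries from their group means correlated at 0.216, 0.0876 and 0.123 over 11908 genes, so the numbers were not taken to pair the samples. Within a stage, no 2 libraries had counts within sampling noise of each other (chi-square per gene 13 to 59.5).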

Additional observations from a re-analysis of the deposited data

Results flagged for a closer look

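In 4 of the genes named by the rule the change between stages differed between WT and ΔSE tissue. The test was that of the interaction over 14 libraries (edgeR's quasi-likelihood test, adjusted over 17842 genes). For Sec61b the difference of log2 fold changes, WT minus ΔSE, was 1.36 (standard error 0.276, adjusted p = 0.0453), with changes of 2.43 in WT and 1.03 in ΔSE tissue. Bet1 differed by 0.992 (standard error 0.206, adjusted p = 0.0453), with 1.68 in WT and 0.646 in ΔSE tissue. Icam1 differed by -1.74 (standard error 0.25, adjusted p = 0.0192), with -1.49 in WT and 0.216 in ΔSE tissue, and Tnf by -2.28 (standard error 0.476, adjusted p = 0.0467), with -2.29 and -0.04. These 4 differences were also called without replicate 2 at p6, at 1.38, 1.00, -1.89 and -2.57. Relb, described above but not named by the rule, differed too, by -1.72 (standard error 0.337, adjusted p = 0.0453). Its changes were -1.17 in WT and 0.515 in ΔSE tissue. With Icam1, Tnf, Relb, Nfkbia and Nfkb2, 5 genes of the NF-kB list were called by this test. Nfkbia differed by -1.46 (adjusted p = 0.0193), with -0.04 in WT and 1.385 in ΔSE tissue. Nfkb2 differed by -1.715 (adjusted p = 0.0346), with -0.83 and 0.85, and neither gene was called in the WT comparison. What sets the genotypes apart in these genes was not tested.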

How the results depend on the processing

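No gene called in the WT comparison was called in the opposite direction in any alternative run. None of the named genes that were called reversed its sign. For other genes that lost their call the sign was not counted in every run. Leaving out single libraries gave 907 to 2076 genes higher and 448 to 1429 lower, with the smallest counts without replicate 2 at p18 (907 and 448). Library totals gave 732 higher and 5580 lower with all libraries, and 700 and 5422 without replicate 2 at p6. The model of 14 libraries gave 2604 lower, and a minimum log2 fold change of 1 gave 909 higher and 757 lower. The interaction without WT replicate 2 at p6, an alternative chosen after the data were seen, gave 563 genes with a larger and 495 with a smaller change in WT, against 22 and 39, and the cause was not tested. DESeq2 gave 2292 and 1946, its size factors in edgeR 2001 and 1525, no filter 2086 and 1454, filterByExpr 2072 and 1551, and 1 factor of unwanted variation 2861 and 2082. The replicate number as a block gave 2277 and 1647 calls. In the sample titles same-numbered libraries are linked only by a number. Replicates 1 and 3 at p6 correlated most with their own number at p18 (0.216 and 0.123). Replicate 2 at p6 correlated less with its own number (0.0876) than with replicate 3 at p18 (0.114). Whether same-numbered libraries share a batch was not tested. Of 164 named genes that were called, 99 kept their call in all alternatives and 148 without replicate 2 at p6. The spread within p6 and the number of libraries, 3 per stage, limit these results, and low genes have 3 reads worth up to 0.403 normalized CPM in the shallowest library.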

Other observations

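Genes of the circadian clock changed in part. Of 19 genes 4 rose and 5 fell, and without replicate 2 at p6, 4 rose and 7 fell, against 3 falls without replicate 3 at p6 or any 1 of the p18 libraries. Bhlhe41 stood at 99.7, 105 and 96.1 at p6 and 21.1, 21.9 and 19.8 at p18 (log2 fold change -2.26, standard error 0.14, adjusted p = 0.000107), and Dbp and Nr1d1, output and repressor genes of the clock, had log2 fold changes of -1.39 and -1.42, against 1.33 for the activator Arntl. The hour at which tissue was taken was not given in the sources used here. Of 22 tested immediate early genes, which respond to stimuli within minutes, 1 rose and 4 fell, with 2 falls without replicate 2 at p18. Egr1 stood at 56.6, 45.5 and 35.4 at p6 and 10.1, 8.52 and 8.96 at p18, with no overlap between stages (log2 fold change -2.31, standard error 0.21, adjusted p = 0.000431).

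Genes of defence in milk moved in both directions. Of 24 complement and antibacterial genes 5 rose and 4 fell with and without replicate 2 at p6, 3 rose without replicate 3 at p6, 2 fell without replicate 3 at p18, and under library totals 4 rose and 5 fell. S100a8, a calcium-binding protein of neutrophils, rose by 2.65 and Lbp, which binds lipopolysaccharide, by 2.11 on the log2 scale, whereas Hp, haptoglobin, had a log2 fold change of -2.06 and Wfdc2 one of -2.81. Of 13 tested genes of antibody transport and plasma cells 3 rose and 3 fell, and 0 fell without any 1 of the p18 libraries. The chemokine Ccl28, which attracts plasma cells, rose by 2.35 and the vessel adhesion molecule Madcam1 by 2.33, while Tnfrsf17, a receptor of plasma cells, stood at 1.08, 0.356 and 2.64 at p6 and 0, 0 and 0.183 at p18 and was called lower (adjusted p = 0.0353). Of 26 interferon-stimulated genes 4 rose and 1 fell, with the same counts without replicate 2 at p6, but without replicate 2 at p18 2 rose and 0 fell, and under library totals 1 rose and 8 fell.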
